A study of Mus musculus with 4 samples.

Results

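The genes described here encode the nuclear subunits and close relatives of the mitochondrial oxidative phosphorylation machinery. They were chosen by symbol from the protein-coding genes outside the mitochondrial chromosome (GENCODE M21, mm10), as those starting with Nduf, Uqcr or Atp5, those starting with Cox4 to Cox8, and Sdha to Sdhd. The rule gave 94 of 21938 gene records and 93 symbols, since Atp5o has 2 records. By role, 44 belonged to complex I or its assembly, 4 to complex II, 8 to complex III, 20 to complex IV and 18 to complex V, counting Atp5s, a relative of the synthase subunits.

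Chromatin accessibility was measured by ATAC-seq, in which Tn5 transposase cuts open chromatin and the fragments are sequenced, in hippocampus at postnatal day 0 from 2 cKO and 2 Ctrl mouse libraries, written cKO1, cKO2, Ctrl1 and Ctrl2 after their replicate numbers. The cKO genotype was Kdm2bEmx1-delta-CxxC: Emx1-Cre, active in the dorsal telencephalon, removes the Kdm2b exon for the CxxC zinc finger, a domain that binds unmethylated CpG-rich DNA, so cells of the dissected tissue outside that lineage keep the exon. Ctrl mice were Kdm2bfl/+ or Kdm2bfl/fl, and the labels do not say which library is which, nor whether libraries came from single or pooled animals. The source field names neural progenitor cells (NPCs), whereas titles and protocol name the hippocampus. In such bulk tissue, fewer cells of a type and less accessibility per cell cannot be told apart.

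Oxidative phosphorylation passes electrons from NADH through complex I, or from succinate through complex II, to ubiquinone, then through complex III and cytochrome c to complex IV, where oxygen is reduced. Complexes I, III and IV pump protons across the inner mitochondrial membrane, and complex V, the ATP synthase, uses their return to make ATP. Most subunits are encoded in the nucleus, a few in mitochondrial DNA, and nuclear respiratory factors such as NRF1 and the ETS-family factor GABP are known regulators of the nuclear genes. Neurons depend heavily on this pathway.

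The promoters that the results turn on are shown first, as up to 150 bases directly before the annotated start site (TSS), 5′ to 3′ on the strand of the gene (GRCm38 sequence, mm10 coordinates). The first set holds the promoters of the subunits with among the strongest peaks and of members that were higher or lower in cKO. Capitals mark the letters of the motifs searched on both strands: NRF1 (GCATGCG), ETS (CCGGAAG), YY1 (GATGGCG), SP (GGGCGGG) and the TATA box (TATAAA). The CCAAT box is named by its own letters. Overlapping matches run together. The stretches were chr11:96075671-96075820 (Atp5g1, minus strand), chr10:128083123-128083272 (Atp5b, plus strand), chr4:116075072-116075221 (Uqcrh, minus strand), chr11:120098778-120098927 (Ndufaf8, plus strand), chr10:80248971-80249120 (Ndufs7, plus strand) and chr11:4704343-4704492 (Uqcr10, minus strand).
Atp5g1: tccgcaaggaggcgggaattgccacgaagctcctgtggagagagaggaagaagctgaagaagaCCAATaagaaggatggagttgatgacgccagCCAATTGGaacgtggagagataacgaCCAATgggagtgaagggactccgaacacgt
Atp5b: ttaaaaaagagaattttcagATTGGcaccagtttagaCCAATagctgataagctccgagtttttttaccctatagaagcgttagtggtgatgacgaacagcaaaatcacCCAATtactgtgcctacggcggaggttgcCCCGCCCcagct
Uqcrh: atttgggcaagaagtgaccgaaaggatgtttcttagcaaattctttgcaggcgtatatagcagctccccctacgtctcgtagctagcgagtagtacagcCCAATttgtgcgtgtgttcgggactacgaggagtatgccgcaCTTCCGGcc
Ndufaf8: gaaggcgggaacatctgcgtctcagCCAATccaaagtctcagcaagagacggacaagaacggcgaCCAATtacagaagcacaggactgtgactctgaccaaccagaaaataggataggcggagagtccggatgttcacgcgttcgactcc
Ndufs7: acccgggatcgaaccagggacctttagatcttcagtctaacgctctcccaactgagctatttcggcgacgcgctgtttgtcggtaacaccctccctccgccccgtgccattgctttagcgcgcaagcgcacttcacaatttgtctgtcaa
Uqcr10: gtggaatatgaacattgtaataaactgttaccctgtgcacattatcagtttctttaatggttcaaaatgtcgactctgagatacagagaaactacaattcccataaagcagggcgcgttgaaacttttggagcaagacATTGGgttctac

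A second set pairs the complex IV subunit genes used in most tissues with their counterparts of heart and skeletal muscle, in which the promoters differ in CpG content. The stretches were chr5:115348982-115349129 (Cox6a1, minus strand), chr7:128206388-128206537 (Cox6a2, minus strand), chr9:79759879-79760028 (Cox7a2, minus strand), chr7:30183994-30184143 (Cox7a1, plus strand), chr19:7217617-7217766 (Cox8a, minus strand) and chr7:140900447-140900596 (Cox8b, minus strand).
Cox6a1: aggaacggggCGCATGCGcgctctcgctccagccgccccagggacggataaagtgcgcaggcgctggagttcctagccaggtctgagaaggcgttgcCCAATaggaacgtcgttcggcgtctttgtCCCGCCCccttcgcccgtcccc
Cox6a2: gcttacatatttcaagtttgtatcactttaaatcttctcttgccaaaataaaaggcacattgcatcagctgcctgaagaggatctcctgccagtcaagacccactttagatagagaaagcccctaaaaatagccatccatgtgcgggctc
Cox7a2: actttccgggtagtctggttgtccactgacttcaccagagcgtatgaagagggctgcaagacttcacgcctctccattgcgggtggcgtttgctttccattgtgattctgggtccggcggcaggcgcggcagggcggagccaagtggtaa
Cox7a1: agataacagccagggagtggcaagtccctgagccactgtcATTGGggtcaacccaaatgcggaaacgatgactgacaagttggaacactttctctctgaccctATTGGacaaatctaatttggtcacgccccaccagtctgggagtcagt
Cox8a: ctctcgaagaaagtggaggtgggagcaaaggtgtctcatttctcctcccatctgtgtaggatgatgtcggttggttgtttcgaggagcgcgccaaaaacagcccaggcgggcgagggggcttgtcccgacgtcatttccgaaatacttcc
Cox8b: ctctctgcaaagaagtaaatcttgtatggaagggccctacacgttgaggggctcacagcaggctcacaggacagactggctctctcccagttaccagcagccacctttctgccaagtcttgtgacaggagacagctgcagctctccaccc

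A match to these letters is a description of the sequence and not evidence of binding. The Cox6a1 stretch held 17 CpG dinucleotides and that of Cox6a2 held 1. The Cox7a2 stretch held 10 against 3 for Cox7a1, and the Cox8a stretch held 10 against 1 for Cox8b. In each pair the gene used in most tissues had the more CpG-dense promoter.

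The 4 peak lists differed greatly in size before any gene was considered. Ctrl1 held 46389 peaks, Ctrl2 held 7037, cKO1 held 21404 and cKO2 held 44535, while the libraries held an estimated 14.6 M to 29.6 M fragments. Ctrl2 stood apart, with the most fragments, the fewest peaks and 60.6% of its peaks mostly in repeat-masked sequence, against 5.37% to 14.7% in the others. The comparisons of groups below are given with it, and the values or calls without it follow. Of the markers checked, all 6 telencephalic genes carried a promoter peak in Ctrl1 and cKO2 and 3 of 6 in cKO1, 1 of 6 microglial markers had one in Ctrl1 and in cKO2, and 1 of 9 markers of other tissues (Actn3) had one in every list. In the order Ctrl1, cKO1 and cKO2, peaks stood at 7, 5 and 8 of 8 neuronal markers, at 7, 6 and 8 of 8 radial glial markers and at 1, 1 and 0 of 5 vessel markers (Kdr). By rank within the list, 4 of 8 radial glial markers were higher in both cKO libraries than in Ctrl1 and 0 were lower, with 1 and 1 of 8 neuronal markers and 2 and 1 of 6 telencephalic ones, where 14.3% of all genes were higher and 22.0% lower (23.1% and 32.7% of CpG-rich genes), and the part of cell composition in the members' values was not tested. None of the neuronal, radial glial or telencephalic markers had a promoter peak in Ctrl2. The Kdm2b promoter had a peak in every list but that of Ctrl2, which says nothing of the deleted exon, so the peak lists do not check the genotype.

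Nearly all members had a promoter peak in Ctrl1 and cKO2, fewer in cKO1 and few in Ctrl2, where a missing peak does not show a closed promoter. A promoter peak, with its summit within 2 kb of a TSS, was present at 86 of 94 members in Ctrl1 (91.5%), 14 in Ctrl2 (14.9%), 63 in cKO1 (67.0%) and 86 in cKO2 (91.5%). Over all protein-coding genes the shares were 58.0%, 8.27%, 40.3% and 55.9%. Among the 10920 genes with a CpG-rich promoter (300 bases around a TSS with at least 50% GC and an observed to expected CpG ratio of at least 0.6) they were 89.9%, 14.5%, 66.8% and 87.4%. Of the members, 68 had a CpG-rich promoter, and a peak stood at 98.5%, 16.2%, 75.0% and 100% of these. The other 26 had one in 73.1%, 11.5%, 46.2% and 69.2%. These differences were not tested.

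**Figure D1:**
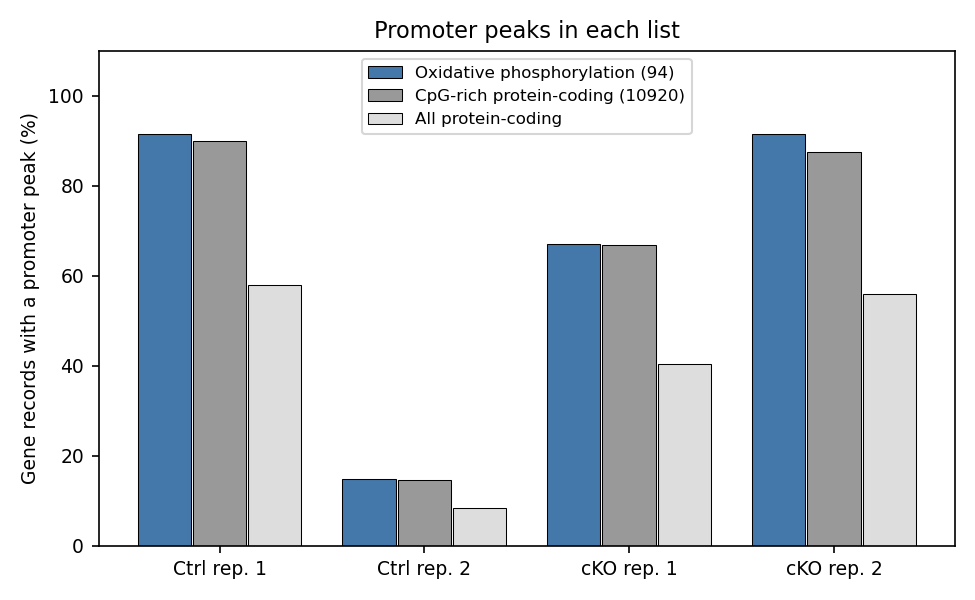
Share of gene records with a promoter peak (%, y axis) in each of the 4 lists (x axis), for the 94 oxidative phosphorylation records, CpG-rich protein-coding genes and all protein-coding genes. The members sit at 91.5%, 14.9%, 67.0% and 91.5%, above all protein-coding genes in each list. With the 26 members that lack a CpG-rich promoter included, they are within 5 percentage points of CpG-rich genes.

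The group means were 50.0 ± 50.9 members with a peak in Ctrl and 74.5 ± 16.3 in cKO (SD, n = 2 each), a difference of 24.5 that is smaller than the spread between the Ctrl libraries. Without Ctrl2 the difference was -11.5 and turned in direction. The median percentile of the members (the percent of protein-coding genes outranked, as defined below) was 74.7 in Ctrl1, 0 in Ctrl2, 69.7 in cKO1 and 74.2 in cKO2, or 37.3 ± 52.8 in Ctrl and 71.9 ± 3.21 in cKO (SD, n = 2 each), and without Ctrl2 the difference was -2.71. CpG-rich genes had medians of 71.4, 0, 70.6 and 71.1. The presence of peaks followed the size of the list: 13 members had a peak in all 4 lists, 50 in every list but Ctrl2, and 21 in Ctrl1 and cKO2 only. Ndufv3, an accessory subunit of complex I, had a peak in every list but cKO1. Ndufaf1, a complex I assembly factor, had one in cKO2 alone, and Ndufa4l2 in Ctrl1 alone.

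Members without a peak in cKO1 had shallower peaks elsewhere by median, with ranges that overlapped. Scaled depth is the fragments at the summit over the mean depth of the genome in the same library. In Ctrl1 its median was 15.4 for the 23 members with a peak there but none in cKO1. It was 32.7 for the 63 with a peak in both. In cKO2 the medians were 13.3 for the 23 with a peak there but none in cKO1, and 28.8 for the 63. The 14 members with a peak in Ctrl2 had a median scaled depth of 52.4 in Ctrl1. The other 72 with a peak in Ctrl1 had 25.0.

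**Figure D2:**
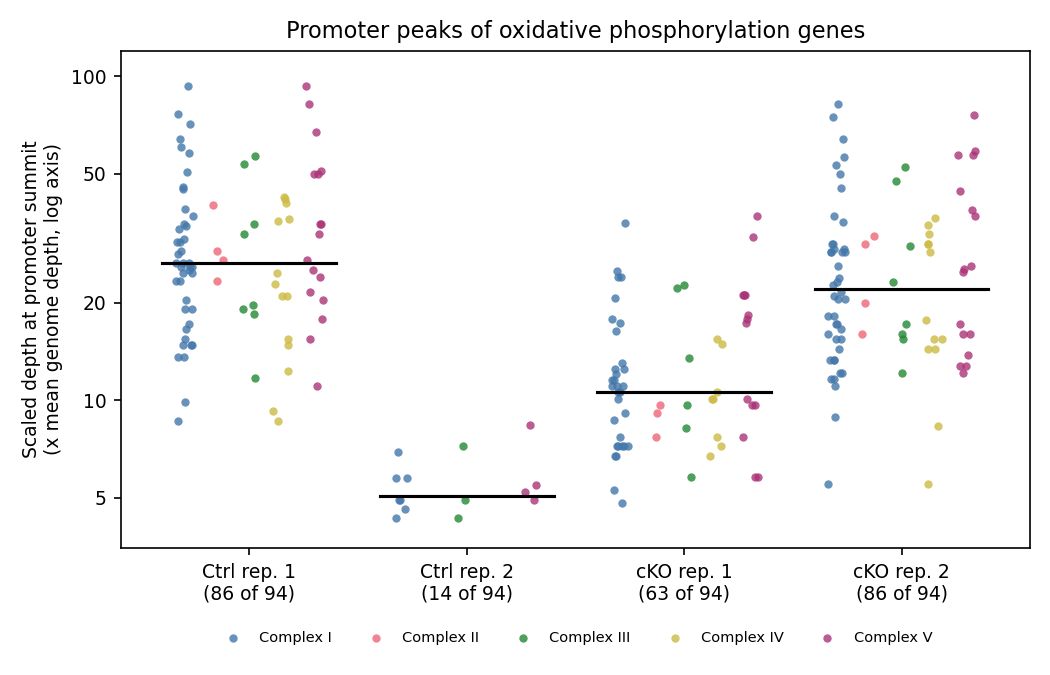
Scaled depth at the summit of the strongest promoter peak (multiples of the mean genome depth, log y axis) of each member with a peak, by library (x axis) and coloured by complex; black lines are medians. Medians are 26.5, 5.05, 10.6 and 22.1, and the depths of Ctrl2 lie below the medians of the other 3 libraries.

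By median, peaks were shallowest for complex IV and deepest for complex V in both of the large lists. The median scaled depth in Ctrl1 was 26.5 for complex I, 28.0 for complex II, 26.2 for complex III, 21.9 for complex IV and 32.7 for complex V. In cKO2 the medians were 21.3, 25.2, 20.2, 17.7 and 25.5. In cKO1 they were 11.1, 9.16, 11.6, 10.1 and 17.6, lowest for complex II and again highest for complex V. They cover only members with a peak there, 3 of 4 in complex II and 8 of 20 in complex IV (4 and 14 in Ctrl1). Members without a peak in cKO1 were shallower elsewhere by median, so no change in order is read from cKO1. The lead of complex V over complex II in cKO2 rests on counting Atp5s, without which both medians were 25.2. Ranges overlapped, from 8.63 to 42.5 for complex IV and from 11.1 to 93.1 for complex V in Ctrl1.

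Ctrl1, cKO1 and cKO2 ranked the members alike. Spearman's rho of scaled depth across members was 0.914 between Ctrl1 and cKO2 (n = 85 members), 0.882 between Ctrl1 and cKO1 (n = 63) and 0.849 between both cKO libraries (n = 63). Pairs with Ctrl2 gave 0.459 to 0.688 over 13 or 14 members. These are descriptions across genes of the same promoters, which share sequence and CpG content.

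Summits lay close to the start site. The median distance from summit to nearest TSS was 54.5 bp in Ctrl1, 94 bp in Ctrl2, 73 bp in cKO1 and 59 bp in cKO2, against 91, 141, 97 and 96 bp over all protein-coding genes with a promoter peak. Within 200 bp lay 86.0%, 78.6%, 84.1% and 87.2% of the members' summits, against 75.3%, 65.8%, 76.0% and 74.3% over all protein-coding genes with a promoter peak. Between Ctrl1 and cKO2 the summit of a member moved by a median of 27 bp, against 38 bp over all genes with a peak in both.

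**Figure D3:**
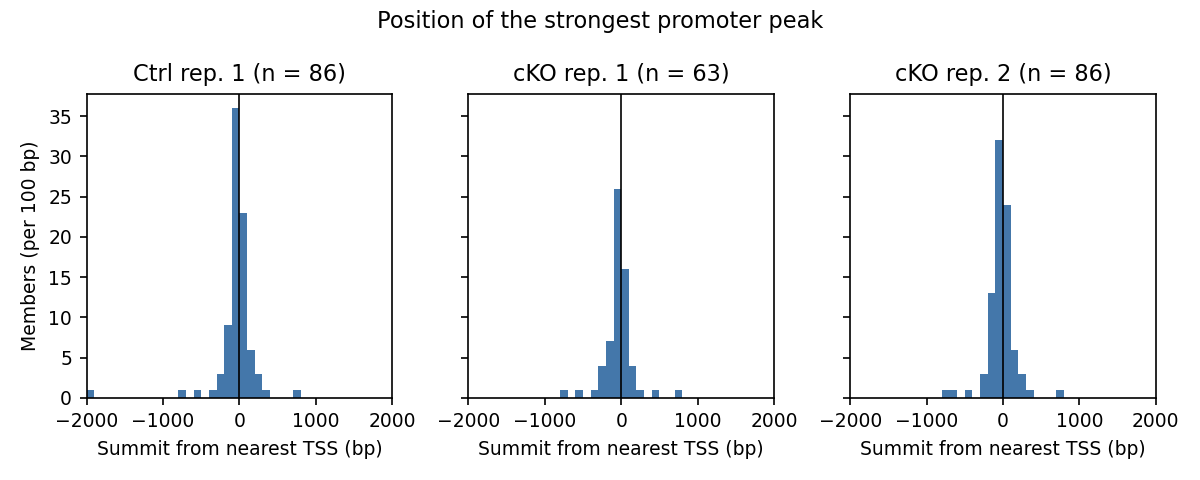
Signed distance from the TSS to the summit of the strongest promoter peak (bp, x axis, negative is upstream), with members per 100 bp (y axis), in the 3 libraries other than Ctrl2. In each panel the peak of the histogram is at the TSS, and 86.0%, 84.1% and 87.2% of summits are within 200 bp, where 75.3%, 76.0% and 74.3% of those of all protein-coding genes are.

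Many member promoters are shared with a neighbouring gene, which bears on what a peak can be credited to. A protein-coding gene on the opposite strand started within 1 kb of 31 of the 94 members (33.0%), against 10.5% of all protein-coding genes and 17.6% of those with CpG-rich promoters. The summit of 22 members in Ctrl1, 5 in Ctrl2, 13 in cKO1 and 18 in cKO2 lay nearer to a TSS of another gene than to their own. Among members with a peak these were 25.6%, 35.7%, 20.6% and 20.9%, and the share over all genes was not counted. The examples that follow are from Ctrl1 and were chosen after their values were seen. The summit credited to Atp5f1, a stalk subunit of the synthase, lay 732 bp from its TSS and 2 bp from that of Wdr77. That of Atp5j, coupling factor 6, lay 383 bp from its TSS and 4 bp from that of Gabpa, which encodes the DNA-binding subunit of GABP. Ndufs1, a core subunit of complex I, and Eef1b2, a translation elongation factor subunit, had starts 3 bp apart with a summit 4 bp from one and 1 bp from the other.

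The 31 members with such a partner had a peak in 31, 8, 28 and 31 cases in the order Ctrl1, Ctrl2, cKO1 and cKO2. The other 63 members had one in 55, 6, 35 and 55. Over all 2304 genes with a head-to-head partner the shares were 92.7%, 26.6%, 79.3% and 92.4%.

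Nuclear respiratory factor letters were more frequent before the members than before other genes. In windows of 250 bases before to 50 after each TSS, on either strand, GCATGCG stood in 11.6% of the members' 164 windows and in 4.37% of all 41493. CCGGAAG stood in 16.5% against 11.2%, and GATGGCG in 9.76% against 4.49%. GGGCGGG was less frequent, in 25.6% against 33.4%, and within CpG-rich windows in 30.9% against 58.3%. CCAAT stood in 42.1% against 36.8%, and TATAAA in 7.93% against 11.8%, but within CpG-rich windows CCAAT stood in 32.7% against 34.7% and TATAAA in 2.73% against 4.23%. Within CpG-rich windows the shares were 14.5% against 7.43% for GCATGCG and 13.6% against 7.88% for GATGGCG. ETS letters were no more frequent among CpG-rich windows, in 19.1% of the members' against 19.8% of all.

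Complex I is the largest, and its core subunits carry the flavin and iron-sulphur centres. The 7 core subunit genes had a peak in 7, 2, 6 and 7 cases in the order used above, and their median percentile in Ctrl1 was 88.2. A gene's percentile is the percent of protein-coding genes that it outranked in a list by the −log10 p of the best promoter peak, with 0 for no peak. Ndufv2, an iron-sulphur subunit, stood at percentiles 97.2 and 92.8 in the Ctrl libraries and 89.5 and 93.9 in the cKO libraries. Ndufs7, the subunit next to the quinone site, stood at 88.2 and 0 in Ctrl and 92.2 and 91.3 in cKO, from 74, 43 and 82 fragments in the 3 libraries with a peak. RefSeq places 2 tRNA genes beside this start, n-TFgaa3 at chr10:80248964-80249036 (minus strand), partly within the stretch printed above, and n-TNgtt7 at chr10:80249159-80249232 (plus strand), and the summits, at -12, -28 and 23 bp from the TSS, lay between them. Of all members, 1 had a tRNA gene within 1 kb of a TSS (1.06%), against 0.155% of protein-coding genes, and the part of these genes in the peak was not tested. For Ndufs7 both cKO libraries were above both Ctrl libraries, and for Ndufv2 the groups overlapped. Without Ctrl2, Ndufs7 was still higher in both cKO libraries, by 3.54 percentile points on average, and Ndufv2 was lower in both, at a difference of -5.48.

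Among accessory subunits of complex I, Ndufb5 stood at 98.6 and 96.8 in Ctrl and at 98.9 in both cKO libraries, the highest mean of this group. Ndufa13, also known as GRIM-19, stood at 92.5 and 94.6 in Ctrl and 95.7 and 93.9 in cKO, and overlapped, but without Ctrl2 it was higher in both cKO libraries. Ndufa6 stood at 86.2 and 95.3 in Ctrl and 80.8 and 88.9 in cKO, with overlap whether or not Ctrl2 was included. Ndufs6 had the lowest mean of the complex I genes with a peak in 3 lists, at 64.1 in Ctrl1, 60.8 in cKO1 and 56.7 in cKO2, from 31, 11 and 21 fragments, and without Ctrl2 it was lower in both cKO libraries, at a difference of -5.31 points. The Ndufa13 summit lay at -778 bp from its TSS in Ctrl1, where negative is upstream. Ndufaf8, an assembly factor, had scaled depths of 64.1 in Ctrl1, 25.1 in cKO1 and 64.2 in cKO2, and no peak in Ctrl2. By percentile it stood at 95.0, 95.6 and 97.0 in those 3 libraries, so that it counted as higher in cKO with and without Ctrl2. Its depth in cKO1 was nevertheless below that of Ctrl1. The summit credited to Ndufaf8 in Ctrl1 and cKO2 lay at -123 bp from its TSS and 74 bp from that of Tepsin. In cKO1 it lay at -86 bp and 111 bp.

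Complex II, succinate dehydrogenase, also works in the citric acid cycle. Sdha, its flavoprotein, stood at percentile 88.3 in Ctrl1, 77.5 in cKO1 and 87.5 in cKO2. Sdhb, the iron-sulphur subunit, stood at 72.7, 64.0 and 82.8, and Sdhc, a membrane anchor, at 79.2, 74.7 and 74.5. Sdhd, the other anchor, stood at 75.5 and 69.6 in Ctrl1 and cKO2 and had no peak in cKO1. No complex II gene had a peak in Ctrl2, and for none did both cKO libraries lie on one side of both Ctrl libraries. A percentile of 0 in Ctrl2 leaves no room for a lower value. Without Ctrl2, 3 of the 4 genes were lower in both cKO libraries, where 22.0% of all and 32.7% of CpG-rich genes were, with differences of -5.77 points for Sdha, -4.60 for Sdhc and -40.7 for Sdhd, while Sdhb overlapped.

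Of complex III, which passes electrons to cytochrome c, 3 of 8 genes had a peak in Ctrl2. Uqcrh, the hinge subunit, stood at 92.7 and 97.7 in Ctrl and 95.0 and 92.8 in cKO, with overlap, and without Ctrl2 it was higher in both cKO libraries, by 1.24 points. The summit credited to Uqcrh in Ctrl1 lay at -186 bp from its TSS, outside the stretch printed above, and 12 bp from that of Lrrc41. Uqcrq stood at 90.9 and 93.3 in Ctrl and at 95.0 in both cKO libraries, and Uqcrb, also a small subunit, at 57.5 and 0 in Ctrl and 72.3 and 72.9 in cKO. Uqcr10 stood at 86.4 and 92.5 in Ctrl and 85.8 and 85.1 in cKO, the lone member lower in both cKO libraries. With peaks of −log10 q of at least 5 only, its Ctrl2 peak was dropped and counted as 0. Its difference thereby turned to 42.2 points, and 0 members were lower. Without Ctrl2 the Uqcr10 difference was -0.98 points, still lower in both, and Uqcrb and Uqcrq were still higher in both. With the lists cut to equal size, the Uqcrb call was lost and its difference was 0. The Uqcr10 peaks rested on 57 and 15 fragments in Ctrl and 28 and 54 in cKO.

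Complex V makes ATP. Atp5g1, a c-ring subunit, had percentiles of 99.2 and 98.7 in Ctrl and 98.7 and 98.8 in cKO, from 151, 29, 66 and 137 fragments, and its values overlapped, but without Ctrl2 it was lower in both cKO libraries, at a difference of -0.44 points. Atp5b, the catalytic beta subunit, stood at 98.7 in Ctrl1, 99.6 in cKO1 and 97.1 in cKO2, and had no peak in Ctrl2. Atp5g2, another c-ring gene, stood at 88.4 and 0 in Ctrl and 93.0 and 94.9 in cKO, and Atp5d at 74.0 and 0 against 86.0 and 81.8. Both were higher in both cKO libraries, with and without Ctrl2, and Atp5b overlapped either way.

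Complex IV has isoforms of different tissues. All 7 genes of the forms used in most tissues had a peak in Ctrl1 and in cKO2, and 6 of 7 had one in cKO1. Of the 8 genes of forms known from heart and skeletal muscle, testis, lung or hypoxic cells, 6 had no promoter peak in any list: Cox4i2, Cox6a2, Cox7a1, Cox7b2, Cox8b and Cox8c. Of all protein-coding genes, 39.8% had none in any list, and of those without a CpG-rich promoter, 71.0% had none, so that 6 of 8 (75.0%) is near the share of such genes. Cox6b2 had shallow peaks, at scaled depths of 8.63 in Ctrl1 and 5.54 in cKO2. The Ndufa4l2 peak in Ctrl1 lay at -1973 bp from its TSS, near the edge of the 2 kb window. None of the 8 had a CpG-rich promoter, and 6 of the 7 general forms did. These 6 genes and the second Atp5o record were the 7 members with no peak in any list.

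**Figure D4:**
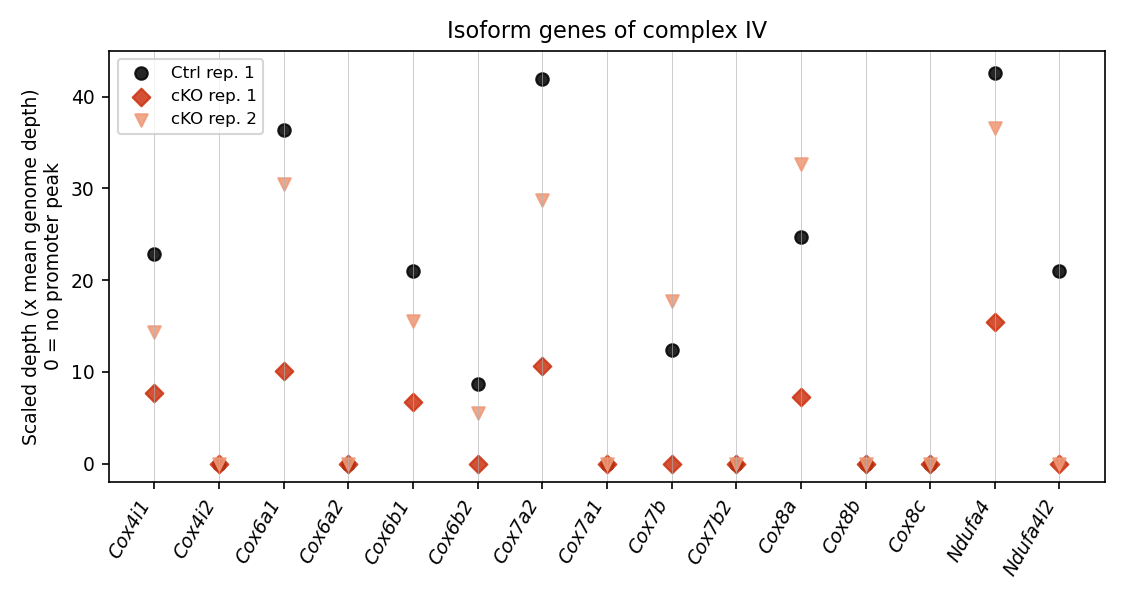
Scaled depth (multiples of mean genome depth, y axis; 0 is no promoter peak) of complex IV isoform genes (x axis), with general forms each beside their counterparts, in the 3 libraries other than Ctrl2. General forms reach 42.5, while 6 counterparts are at 0 in all 3 libraries; the lone Ndufa4l2 point is the peak at -1973 bp from its TSS.

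Cox4i1, the general form of subunit 4, had scaled depths of 22.8, 7.71 and 14.4 in Ctrl1, cKO1 and cKO2. Cox6a1 had 36.4, 10.1 and 30.4, Cox7a2 had 41.9, 10.6 and 28.8, and Cox8a had 24.7, 7.23 and 32.7. Each of these was lowest in cKO1, and Cox8a was the one highest in cKO2. By percentile all 4 overlapped between the groups, and without Ctrl2 Cox6a1 and Cox7a2 were lower in both cKO libraries, at -4.32 and -6.85 points. Of the other general forms, Ndufa4 was higher in both cKO libraries with and without Ctrl2 (1.21 points without it), Cox6b1 was lower in both without Ctrl2, at -7.47, and Cox7b overlapped. Without Ctrl2, 1 of the 7 was thus higher and 3 were lower (14.3% and 22.0% of all genes).

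Between genotypes, 15 members had a percentile in cKO1 and cKO2 above those in Ctrl1 and Ctrl2, or 16.0%, against 12.3% of all protein-coding genes and 19.7% of those with CpG-rich promoters. 1 member (1.06%) was lower, against 1.69% and 2.99%. These shares are near their backgrounds. The 15 were Atp5d, Atp5g2, Atp5j2, Atp5s, Ndufa12, Ndufa4, Ndufaf8, Ndufb11, Ndufb2, Ndufb5, Ndufb7, Ndufb9, Ndufs7, Uqcrb and Uqcrq, and 13 of them had no peak in Ctrl2. With each list cut to its 7037 strongest peaks, 9 of the 15 kept the call, and Atp5j2, Atp5s, Ndufa12, Ndufb7, Ndufb9 and Uqcrb lost it. With 6 ways to assign the libraries to groups, an exact permutation test (two-sided) cannot give a p below 0.333 here. After Benjamini-Hochberg adjustment over 21938 genes the smallest adjusted p was 1, so 0 genes passed, and 0 had an unadjusted p below 0.05.

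Without Ctrl2, 19 members (20.2%) were higher in both cKO libraries than in Ctrl1, against 14.3% of all and 23.1% of CpG-rich genes, and 38 (40.4%) were lower, against 22.0% and 32.7%. Of those 38, 14 had no peak in cKO1. The lower members thus outnumbered the higher ones when Ctrl2 was left out and not when any of the other 3 libraries was, and that comparison rests on 1 Ctrl library. By complex, 17 of the 38 were of complex I, 3 of complex II, 4 of complex III, 6 of complex IV and 8 of complex V.

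**Figure D5:**
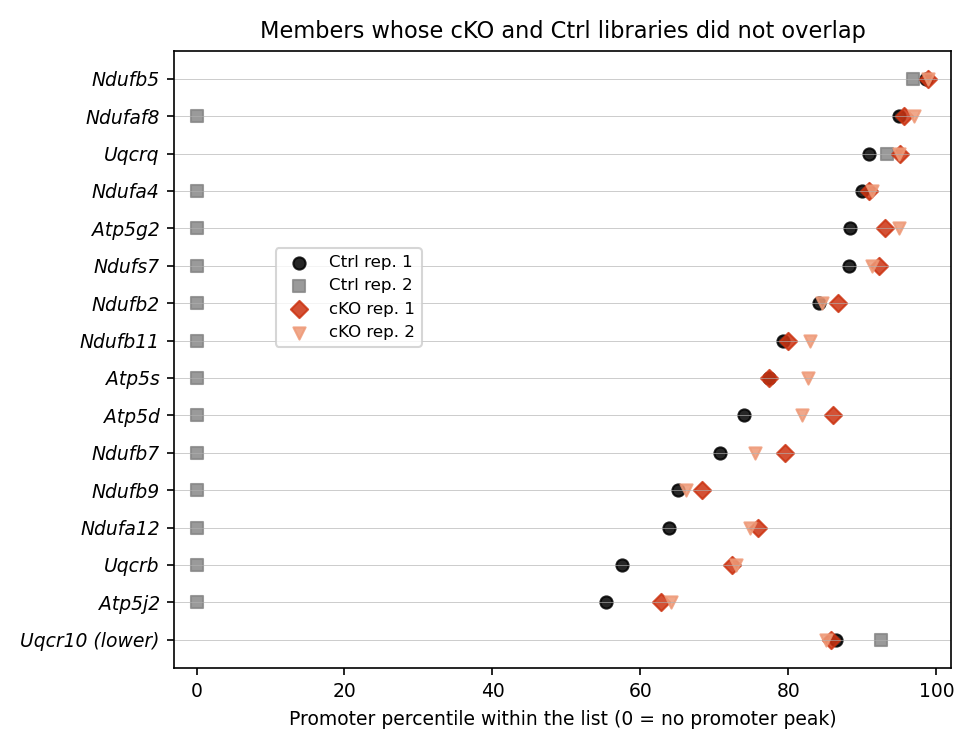
Promoter percentile within each list (x axis, 0 is no promoter peak) of the 16 members whose cKO and Ctrl libraries did not overlap (y axis), with a marker for each library. For 13 of the 15 higher members, Ctrl2 is at 0, and in all 15 Ctrl1 lies below both cKO libraries.

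On the scale of depth, the members of Ctrl1 and cKO2 were close, and those of cKO1 were lower than in both. Median scaled depth was 15.8 ± 15.2 in Ctrl and 16.4 ± 8.16 in cKO (SD, n = 2 each), and without Ctrl2 the difference was -10.1. Each median covers the members with a peak in that list, which differ. Over the 63 members with a peak in Ctrl1, cKO1 and cKO2 the medians were 32.7, 10.6 and 28.8, against 32.1, 11.6 and 27.1 over all such genes. Over the 13 with a peak in all 4 lists they were 53.6 in Ctrl1, 5.2 in Ctrl2, 21.2 in cKO1 and 47.6 in cKO2. All such genes had 63.8, 6.06, 22.7 and 53.1. The median ratio of scaled depth of cKO2 to Ctrl1 was 0.837 over 85 members, against 0.842 over all 11820 protein-coding genes with both peaks. The exact 95% Poisson interval of cKO2 lay below that of Ctrl1 for 0 of 85 members, against 2.13% of those genes, and above it for 0. Between cKO1 and Ctrl1 the median ratio was 0.327 over 63 members, against 0.370 over all genes, and in 58 of 63 (92.1%) the interval of cKO1 lay below, against 78.9% of all 8778 genes and 81.9% of CpG-rich ones. It also lay below that of cKO2, of the same genotype, in 47 of 63 (74.6%), against 65.3% of all and 68.1% of CpG-rich genes. Among genes with a peak in both libraries compared, most thus had a shallower one in cKO1, and nothing particular to the members is read from these counts. These intervals cover counting error only, and differences in enrichment between libraries were not tested. For Uqcrb the depths were 11.7 (7.05 to 18.3) in Ctrl1, 8.20 (4.77 to 13.1) in cKO1 and 17.2 (11.7 to 24.4) in cKO2, which overlap.

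Of the 15 members higher by percentile, 8 had a greater scaled depth in Ctrl1 than in both cKO libraries, 7 had a greater one in cKO2, and 0 had a greater one in cKO1. In these members the percentile and the depth thus order the libraries differently. The same split over all genes called higher was not counted. Over all 8778 genes with both peaks the median ratio of cKO1 to Ctrl1 was 0.37. The 0 for cKO1 is therefore not read as particular to the members.

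Related lists were counted the same way. In the order used above, promoter peaks stood at 7, 2, 6 and 7 of 7 electron carrier genes, at 38, 7, 30 and 37 of 38 other assembly factors and at 16, 5, 13 and 16 of 16 regulators of mitochondrial biogenesis. The 13 citric acid cycle genes had 13, 4, 10 and 13, and 18 glycolysis records had 17, 1, 14 and 16. Of the 78 mitochondrial ribosome genes, 77, 13, 50 and 78 had one, and of the 79 cytosolic ribosomal protein genes, 76, 16, 71 and 76. The members' share was below that of all 7 lists in Ctrl1, of all but glycolysis in Ctrl2 and cKO2 and of all but the mitochondrial ribosome in cKO1, and these differences were not tested. The members, chosen by symbol, include the 8 complex IV isoform genes of other tissues, with peaks at 2, 0, 0 and 1. They also include the second Atp5o record, with none. These records lower the members' share, so no shortfall of the pathway is read from it. Higher in both cKO libraries were 1 electron carrier gene (14.3%), 13 assembly factors (34.2%), 2 regulators (12.5%), 3 citric acid cycle genes (23.1%), 6 glycolysis records (33.3%), 10 mitochondrial ribosome genes (12.8%) and 15 cytosolic ribosomal protein genes (19.0%), against 12.3% of all and 19.7% of CpG-rich genes. Lower in both were 1 (14.3%), 1 (2.63%), 2 (12.5%), 0, 0, 2 (2.56%) and 3 (3.8%) in the same order. Of all genes 1.69% were lower, and of CpG-rich genes 2.99%. Without Ctrl2 the higher counts were 1, 17, 4, 4, 7, 11 and 19, against 14.3% of all and 23.1% of CpG-rich genes, and the lower counts were 2, 13, 4, 3, 6, 27 and 30, against 22.0% and 32.7%. Lower genes outnumbered higher ones in both ribosomal lists and the electron carriers, as over all and over CpG-rich genes, but not among assembly factors, regulators, citric acid cycle genes or glycolysis records. These lists were chosen with earlier results known, and none was tested.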

How the data were processed

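Members, lists and tests were chosen with earlier results of these data known. Per the study's methods and the labels' processing notes, Cutadapt trimming, Bowtie2 alignment to mm10, removal of blacklisted, mitochondrial and duplicate reads and a Tn5 shift preceded peak calling by the authors, who ran MACS2 2.2.7.1 on each library alone and without a control library. Each deposited list gives MACS2's score (not used), the fold enrichment over local background as a ratio, −log10 p-values and −log10 q-values. All lists went down to a −log10 q of about 1.31 and have their own thresholds in fragments, and small lists may miss shallow promoters.

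Fragment depth at each summit was recovered from fold and p (within 0.01 for 99.4% to 99.9% of peaks) and divided by the mean genome depth. It covered 10 to 151 fragments per member promoter. A member took its strongest promoter peak by −log10 p. Genes and TSSs came from GENCODE M21 (basic set), sequence and tRNA genes from the RefSeq copy of GRCm38. Exact permutation tests ran on every gene, and code was tested on simulated data. Named genes were, among members whose groups did not overlap, those with the largest differences (up to 8 each way). The 8 highest and up to 8 with a peak in Ctrl replicate 2 were added, as were those with no peak. Isoform pairs, Sdh genes and the lowest of each complex were also named. The text also names the other members called higher, and Atp5b, Ndufs1, Ndufv3 and Ndufaf1, which these rules do not cover. Alternatives were window, list size, q minimum, repeats, ranking, mid-ranks and leaving out libraries. Python 3.11.15, pandas 2.3.3 and scipy 1.17.1 were used. Labels do not say that libraries came from separate animals, so spread may be technical.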

Additional observations from a re-analysis of the deposited data

How the results depend on the processing

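Leaving out each library in turn, the cKO minus Ctrl difference in members with a peak ranged from -11.5 to 60.5, in median percentile from -2.71 to 71.9 and in median scaled depth from -10.1 to 11.3, members higher in both cKO libraries from 19 (14.3% of all genes) to 54 (33.6%) and lower from 2 (3.10%) to 38 (22.0%). The lowest differences came without Ctrl2 and the highest without Ctrl1. With lists cut to the 7037 strongest peaks, members with a peak numbered 52 in Ctrl1, 14 in Ctrl2, 32 in cKO1 and 41 in cKO2, the median percentile difference turned to -37.3 and 9 members were higher, with 5.10% of all genes. Lower members numbered 0 (1.04% of all genes) with −log10 q of at least 5 and 3 (6.24%) with mid-ranks. The q minimum dropped the Ctrl2 peaks of Uqcr10, Ndufv2, Atp5j, Atp5f1, Ndufa13 and Uqcrq, which then counted as 0. With this the Uqcr10 difference reversed to 42.2 percentile points. Those of Ndufv2 and Atp5j went from -3.28 and -1.45 to 43.1 and 45.9. Those of Atp5f1, Ndufa13 and Uqcrq rose to 47.5, 48.5 and 49.6. These turns rest on the dropped Ctrl2 peaks and not on changed cKO values. With the replicate block, same-numbered libraries gave 21 higher and 4 lower members, with 19.4% and 2.58% of all genes, and 2 pairs share only a number. Other window, overlap, q, repeat, ranking and mid-rank settings gave 12 to 17 higher members. With the members' median scaled depth divided by that of all genes with a promoter peak in the list, chosen after seeing the data, the cKO minus Ctrl difference in this ratio was 0.0314 (SD within a group up to 0.211), and -0.118 without Ctrl2. Beyond the peaks dropped or cut as described, the causes of these changes were not tested. No gene passed the adjusted test in any setting, and with so few libraries none could. The shallowest promoter peak of any protein-coding gene rested on 7 fragments in Ctrl1, 12 in Ctrl2, 9 in cKO1 and 8 in cKO2.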
